A study of Mus musculus with 8 samples.

Results

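Mybpc1, Tmprss9, Apobr and Ptcra are 4 protein-coding genes that were close to the lower limit of detection in alpha cells carrying an empty plasmid. They are taken here as genes with their main roles in other tissues, a trait that was not tested in these data. They were selected on their counts, which were near 0 in 4 control libraries and higher in 4 libraries from cells given a Yy1 plasmid. They are 4 of 21760 protein-coding gene IDs in the table, which holds 75078 IDs in all, and each of the 4 symbols matched 1 ID (Mybpc1 ENSMUSG00000020061, Tmprss9 ENSMUSG00000059406, Apobr ENSMUSG00000042759, Ptcra ENSMUSG00000036858). Since the choice used the difference between the plasmids, that difference is described for these 4 genes and not tested.

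Poly(A) RNA was sequenced from the mouse line αTC1-6, a glucagon-producing pancreatic alpha cell line, in DMEM labelled 11 mM. At 24 h after seeding the cells were transfected with an empty (stuffer) plasmid, libraries 31, 32, 33 and 34, or with a plasmid overexpressing Yy1, libraries 45, 46, 47 and 48. The promoter of the plasmid, the share of cells that took it up and the time of harvest are not given in the sources used here. The first set is called control libraries here and the second Yy1 libraries. Nothing in the labels says that the 4 libraries of a group came from separate cultures, so their spread may be technical, and handling of the groups cannot be told apart from the plasmid.

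Yy1 protein recognises DNA through zinc fingers, at sites with a CCAT core in promoters and enhancers, and can either raise or lower transcription there. The 4 genes have unrelated roles. Mybpc1 encodes the slow-type myosin-binding protein C, which ties thick filaments to titin in the sarcomere of skeletal muscle. Tmprss9 encodes polyserase-1, a membrane-anchored protein with serine protease domains in tandem. Apobr encodes the receptor for apolipoprotein B-48, through which monocytes and macrophages take up triglyceride-rich lipoproteins. Ptcra encodes pT-alpha, the invariant chain of the pre-T cell receptor, which pairs with a newly rearranged T cell receptor beta chain in immature thymocytes.

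The DNA upstream of the 4 genes is shown because a factor that binds DNA was overexpressed and the genes were chosen for a shared direction. Each gene had 1 window in the RefSeq table for GRCm38.p6, an older build than the GRCm39 the submitters' processing notes name. A window runs from 250 bases before to 50 bases after the RefSeq transcript start, and positions count from that start. The printed stretch is the longest one before the start that holds no exon of a protein-coding gene in GENCODE mouse release 21. Capitals mark the letters CCAT, or ATGG for the other strand. Mybpc1 is from chr10:88605153-88605402 on the minus strand, Tmprss9 from chr10:80879566-80879704 on the plus strand, Apobr from chr7:126584787-126584941 on the plus strand and Ptcra from chr17:46763713-46763962 on the minus strand.
Mybpc1: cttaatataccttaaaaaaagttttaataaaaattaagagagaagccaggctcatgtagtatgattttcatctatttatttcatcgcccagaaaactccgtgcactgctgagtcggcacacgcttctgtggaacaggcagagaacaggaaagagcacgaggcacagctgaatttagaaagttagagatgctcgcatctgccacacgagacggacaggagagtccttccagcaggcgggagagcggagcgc
Tmprss9: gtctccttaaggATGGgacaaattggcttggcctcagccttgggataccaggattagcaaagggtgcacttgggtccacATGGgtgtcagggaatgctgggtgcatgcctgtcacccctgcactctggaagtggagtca
Apobr: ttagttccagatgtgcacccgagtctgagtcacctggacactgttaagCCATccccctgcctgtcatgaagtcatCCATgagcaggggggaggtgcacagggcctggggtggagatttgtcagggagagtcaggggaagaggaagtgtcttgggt
Ptcra: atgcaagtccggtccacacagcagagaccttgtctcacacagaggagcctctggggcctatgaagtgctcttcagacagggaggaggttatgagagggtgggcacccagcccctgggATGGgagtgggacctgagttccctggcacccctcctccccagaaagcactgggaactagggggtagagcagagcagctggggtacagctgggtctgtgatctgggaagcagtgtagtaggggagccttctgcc

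No longer Yy1-type motif was common to the 4 RefSeq windows. Other annotated starts were not searched, among them a Tmprss9 start 7968 bases upstream and Mybpc1 starts far downstream. The core CCAT was searched on both strands of the whole windows and was found in 3 of the 4, and in 83.1% of all 32851 windows of this length. Mybpc1 was the one without it. GCCAT, which contains that core, was found in the windows of Tmprss9 and Apobr, 2 of the 4, beside 40.5% of all windows. Some of these matches lie outside the printed stretches.

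The longer form CCATNTT was in 1 of the 4 windows, that of Tmprss9, beside 16.1% of all windows. GCCATNTT, which contains both shorter forms, was in none of the 4 and in 6.05% of all. The Tmprss9 match begins at position -58, inside the first exon of 2 GENCODE transcripts that start 96 and 111 bases before the RefSeq start. It is shown with the bases around it, from chr10:80879747-80879776 on the plus strand, with the motif in capitals.
Tmprss9 match: aaatcctttgtCCATTTTttgttctttttc

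The windows also differed in base composition. GC made up 46.4% of the 250 bases before the start in Mybpc1, 51.6% in Tmprss9, 58% in Apobr and 60.4% in Ptcra, beside a median of 52.4% over all windows. CpG dinucleotides numbered 11 upstream of Mybpc1, 4 upstream of Apobr and 1 each upstream of Tmprss9 and Ptcra, beside a median of 6.

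The libraries held 20679804 to 33347445 estimated counts. Yy1 itself stood at 175 ± 5.33 CPM (counts scaled to a fixed library total) in control libraries and 5230 ± 464 CPM in Yy1 libraries (SD, n = 4; edgeR quasi-likelihood test, adjusted p = 7.38e-24). Of 14 alpha cell markers, 13 passed the filter on low counts, Gcg among them at 21200 ± 547 and 21300 ± 372 CPM (SD, n = 4). Of the 13, edgeR called 0, beside 0.515% of all tested genes in either direction. At an unadjusted edgeR p under 0.05 there was 1, beside 5.42% of all tested genes. The marker Gc was at 0 counts in all 8 libraries. Of the hormone genes of beta, delta and PP cells, Ins1, Ins2 and Ppy had 0 counts in every library and Sst had 1 over each group, while the beta cell hormone gene Iapp had 52 counts over the control and 53 over the Yy1 libraries. Of the other markers of those cells, Nkx6-1 stood at 54.8 ± 2.1 and 51 ± 4.41 CPM (SD, n = 4), and Mafa had 28 and 68 counts in all. In RNA from a whole culture, more cells of a kind and more RNA per cell cannot be told apart.

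Mybpc1 was the rarest of the 4 genes in control cells. It had 2, 2, 2 and 1 counts in control libraries and 23, 24, 25 and 13 in Yy1 libraries, in the order of the library numbers. The lowest Yy1 library was thus 48, and no library of one group reached into the range of the other. On the scale of CPM, its level was 0.0685 ± 0.0258 in control libraries and 0.668 ± 0.179 in Yy1 libraries (SD, n = 4), and the fitted log2 fold change was 3.25 (SE 0.479). The ratio of the summed counts, scaled for depth, was 10.1, with an exact 95% interval of 4.68 to 25.8 that covers counting error only. A prior count of 2, larger than the default of edgeR, gave a log2 change of 2.45.

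Tmprss9 showed the same picture with a less even control group. Its counts were 2, 3, 5 and 0 in control libraries and 31, 24, 32 and 23 in Yy1 libraries. Library 34 had no Tmprss9 count, which at its depth allows a level of up to 0.107 CPM (3 counts, a one-sided limit) or 0.132 CPM (upper end of the two-sided exact 95% interval), and library 33, the shallowest, had the most. The level was 0.106 ± 0.104 CPM in control libraries and 0.861 ± 0.117 CPM in Yy1 libraries (SD, n = 4), a fitted log2 change of 3.11 (SE 0.477). The depth-scaled ratio of summed counts was 9.13 (exact 95% interval 4.78 to 19.6). Without control library 33 the log2 fold change was 3.79, and with a prior count of 2 it was 2.50.

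Apobr, the lipoprotein receptor gene, had 4, 3, 1 and 6 counts in control libraries and 19, 25, 24 and 28 in Yy1 libraries. Unlike the other 3 genes, it was highest in library 48 and lowest, among Yy1 libraries, in library 45. Its level was 0.127 ± 0.0683 CPM and 0.756 ± 0.133 CPM (SD, n = 4), with a fitted log2 change of 2.48 (SE 0.408). The depth-scaled ratio of summed counts was 5.69 (exact 95% interval 3.23 to 10.8).

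Ptcra was the least close to 0 in control cells. Its estimated counts were 14, 4, 4 and 9 in control libraries and 30, 33.6, 41.8 and 24 in Yy1 libraries. The gap between the groups was the narrowest of the 4 genes, with 0.454 CPM in the highest control library, 31, and 0.753 CPM in the lowest Yy1 library, 48. The level was 0.281 ± 0.137 CPM and 1.02 ± 0.224 CPM (SD, n = 4), with a fitted log2 change of 1.80 (SE 0.343). The depth-scaled ratio of summed counts was 3.48 (exact 95% interval 2.34 to 5.33).

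**Figure D1:**
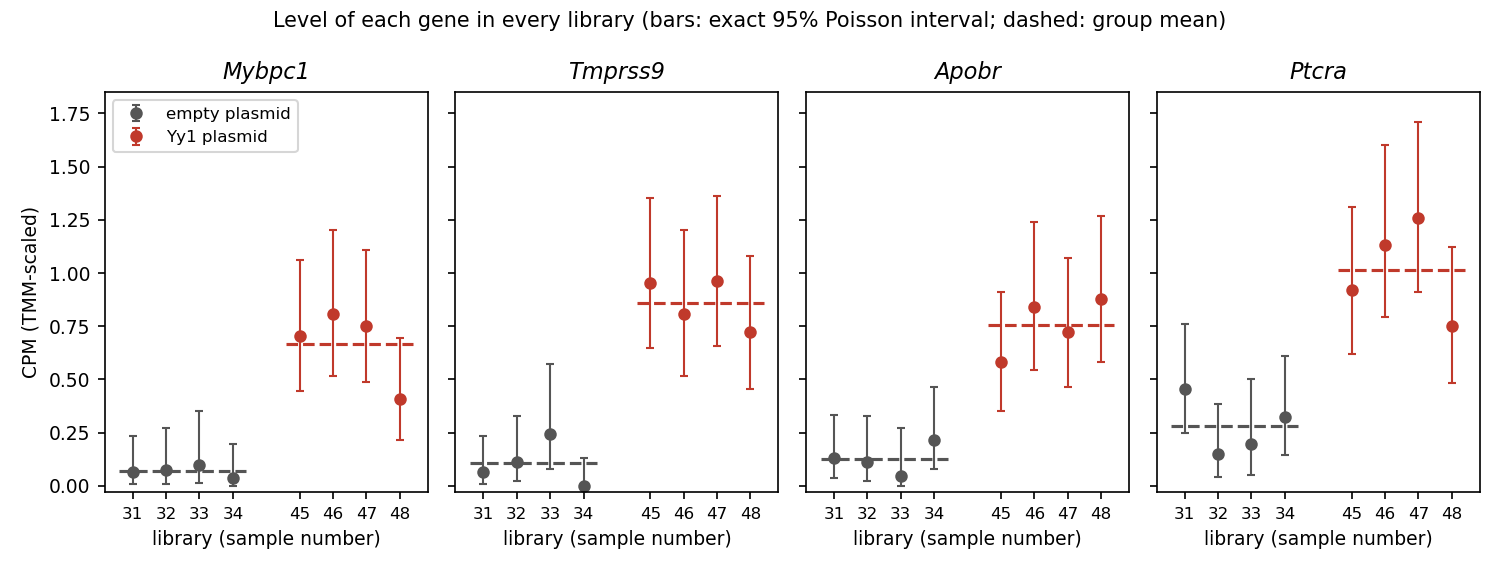
CPM of Mybpc1, Tmprss9, Apobr and Ptcra in each of the 8 libraries, numbered on the horizontal axis; grey points are the empty plasmid, red points the Yy1 plasmid, bars the exact 95% Poisson interval of each count and dashed lines the group means. The groups do not overlap in any of the 4 panels, and Ptcra has the highest control libraries, up to 0.454 CPM in library 31.

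For all 4 genes the lowest Yy1 library lay above the highest control library, as it did for 2.37% of all tested genes in the same direction. All 4 were also among the 79 genes that edgeR called higher at an adjusted p under 0.05, which are 0.496% of the 15916 tested genes, and among the 9 protein-coding ones, 0.0722% of 12469. Both facts follow from how the genes were chosen and carry no further weight. The filter kept genes with at least about 10 counts in 4 libraries. All 4 passed it through the Yy1 group, where every library had at least 10 counts, while in control libraries only Ptcra reached 10 counts, in 1 library.

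Per kilobase of the longest annotated transcript, Ptcra was the most abundant of the 4 in both groups. Its level was 0.219 CPM per kb in control libraries and 0.792 in Yy1 libraries, from a transcript of 1283 bases. In control libraries the other 3, whose longest transcripts run from 3581 to 3922 bases, had 0.0175 (Mybpc1), 0.0295 (Tmprss9) and 0.0344 CPM per kb (Apobr). The same 3 genes stood at 0.17, 0.24 and 0.205 CPM per kb in Yy1 libraries. Even there the 4 genes remained rare on the scale of CPM, above 45.8% (Mybpc1) to 47.3% (Ptcra) of the protein-coding genes in the table. In control libraries these shares were 33.6% and 42.2%.

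**Figure D2:**
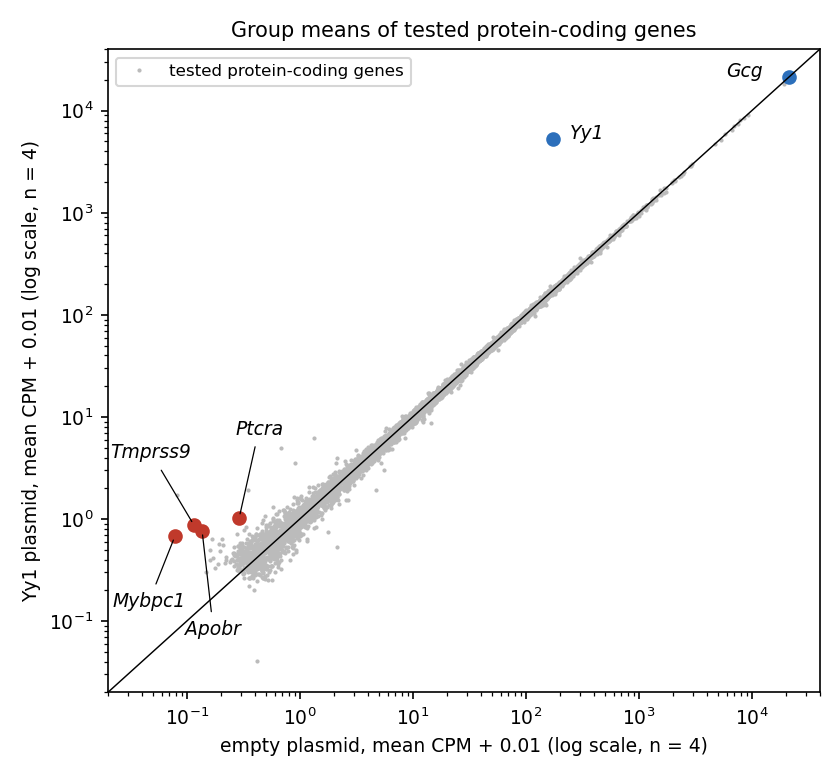
Mean CPM + 0.01 of each tested protein-coding gene in control (horizontal, log scale) and Yy1 libraries (vertical, log scale), n = 4 libraries per group, with the line of equal levels. The 4 genes (red) lie at the low end and left of the line, between 0.668 and 1.02 CPM in Yy1 libraries, while Yy1 (blue) lies at 5230 CPM and Gcg (blue) on the line.

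The Yy1 libraries did not rank the 4 genes alike. Their coefficients of variation were 26.7% for Mybpc1, 13.5% for Tmprss9, 17.6% for Apobr and 22.1% for Ptcra. Counting error alone gives 21.7%, 19.1%, 20.4% and 17.5% at their mean counts. The observed values were lower than that for Tmprss9 and Apobr and higher for Mybpc1 and Ptcra. A coefficient of variation from 4 libraries is rough, and these gaps were not tested. Yy1 was highest in library 45, at 5900 CPM, against 4810 to 5120 CPM in the other 3. In that library Apobr was at its lowest for the group, while Tmprss9, Mybpc1 and Ptcra had neither their highest nor their lowest value of the group.

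Sequence shared with other genes, by which reads can be assigned to the wrong one, was looked for in the 4 genes. The transcripts of GENCODE mouse release 21 were split into words of 31 bases, the default word length of kallisto, the program that assigned the reads. Release 21 matched 48327 of the 75078 IDs in the table, and transcripts of the other IDs were not searched. Of the words in the transcripts of Mybpc1, Tmprss9 and Apobr, 0 occurred in release 21 transcripts of another gene in the same orientation. In Ptcra 64 of 1253 words (5.11%) did, in 459 other genes. Of these, 337 were tested, 5 were called higher by edgeR (1.48%, beside 0.515% of all tested genes in either direction) and 0 lower, and the median log2 change was 0.007.

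One of the 5, the long non-coding RNA gene 4732419C18Rik, is named here after its values were seen because it shared 23 words with Ptcra and had similar levels. Its estimated counts were 11.3, 1.01, 2.07 and 7.02 in control libraries and 22.5, 35.7, 32.9 and 35.6 in Yy1 libraries. The groups did not overlap, and its level was 0.189 ± 0.148 CPM and 0.999 ± 0.224 CPM (SD, n = 4), a fitted log2 change of 2.33 ± 0.41 (SE; edgeR adjusted p = 0.00326). How far shared reads enter the counts of Ptcra was not tested, so its values are uncertain in this respect. Ptcra was also the only one of the 4 with fractional estimates, which were off a whole number by more than 0.01 in 2 of 8 libraries, 46 and 47, and by more than 1e-06 in 5.

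In the opposite orientation 12.6% of the words of Apobr occurred in its overlapping neighbours, 413 words in Cln3 and 73 in Il27. For Mybpc1 it was 4.82%, in the overlapping Gm48752, which is not analysed here, and for Tmprss9 0.344%, in the overlapping Timm13. For Ptcra it was 5.51%, or 69 words, in 483 other genes. The libraries were made with a strand-specific kit, but the sources used here do not say whether the counting used the strand. Cln3, a lysosomal membrane protein gene, had 9.68 ± 0.608 and 9.2 ± 0.955 CPM in control and Yy1 libraries (SD, n = 4), and Il27 had 0 counts in all 8 libraries. Timm13, a mitochondrial import chaperone gene, stood at 56.7 ± 6.84 and 59 ± 5.86 CPM (SD, n = 4).

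The tested neighbours of the 4 genes were not called. Neighbours were the 3 nearest protein-coding genes on each side plus any overlapping gene, all in GENCODE mouse release 21. IDs that this release lacks were not looked at. The neighbours numbered 29 in all, of which 27 were in the table and 21 passed the filter. Of these 21, edgeR called 0, beside 0.515% of all tested genes in either direction, and 2 had an unadjusted p under 0.05, beside 5.42% of all tested genes. DESeq2 and limma-voom also called 0, each with 2 at an unadjusted p under 0.05. The median log2 change of the 21 was -0.02, beside -0.002 over all tested genes.

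At the Mybpc1 locus the tested neighbours had log2 changes from -0.02 to 0.06. They were Chpt1, a phospholipid synthesis enzyme gene (0.05), Gnptab, which tags lysosomal enzymes (0.06), Arl1, a Golgi GTPase gene (-0.02), and Utp20, a ribosome assembly factor gene (-0.02). Spic, a macrophage transcription factor gene and the nearest one on the other side, had 1 count in all 8 libraries together. Sycp3, a meiotic chromosome protein gene, had 0.

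Beside Tmprss9, Gadd45b, a stress-induced signalling gene, had the smallest p. Its level was 5.1 ± 0.376 CPM in control libraries and 6.06 ± 0.471 CPM in Yy1 libraries (SD, n = 4), which is a fitted log2 change of 0.25 ± 0.108 (SE; edgeR adjusted p = 0.834). Its groups did not overlap, as in 2.37% of all tested genes in that direction, and its sign was the same as that of Tmprss9. The adjoining Lmnb2, which encodes lamin B2, had a log2 change of -0.03, and Sppl2b, an intramembrane protease gene on the other side, one of -0.04. Further out, Lsm7, an RNA-binding protein gene, had -0.02 and Gng7, a G protein subunit gene, 0.16. Lingo3 did not pass the filter, with 1 count over the control libraries and 8 over the Yy1 libraries.

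Beside Apobr, Nupr1, a stress-induced chromatin protein gene, stood at 10.8 ± 0.306 and 8.86 ± 0.203 CPM (SD, n = 4), which is a fitted log2 change of -0.28 ± 0.0777 (SE; edgeR adjusted p = 0.189). Its groups did not overlap, as in 1.58% of all tested genes in that direction, and its sign was opposite to that of Apobr. Eif3c, a translation initiation factor gene, had a log2 change of -0.05, Atxn2l, an RNA-binding protein gene, -0.07, Tufm, the mitochondrial elongation factor gene, 0, and Sgf29, a histone-reading protein gene, 0.02. Around Ptcra the values lay between -0.09, for Pex6, a peroxisome assembly gene, and 0.05, for Bicral, a chromatin remodelling gene. Cnpy3, a chaperone gene for Toll-like receptors, and 2310039H08Rik both had 0.02, and Rpl7l1, a ribosomal protein-like gene, had -0.03. The Apobr neighbour Sult1a1 did not pass the filter, with 15 counts over the control and 20 over the Yy1 libraries. Nor did Gnmt beside Ptcra, with 9 and 20.

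**Figure D3:**
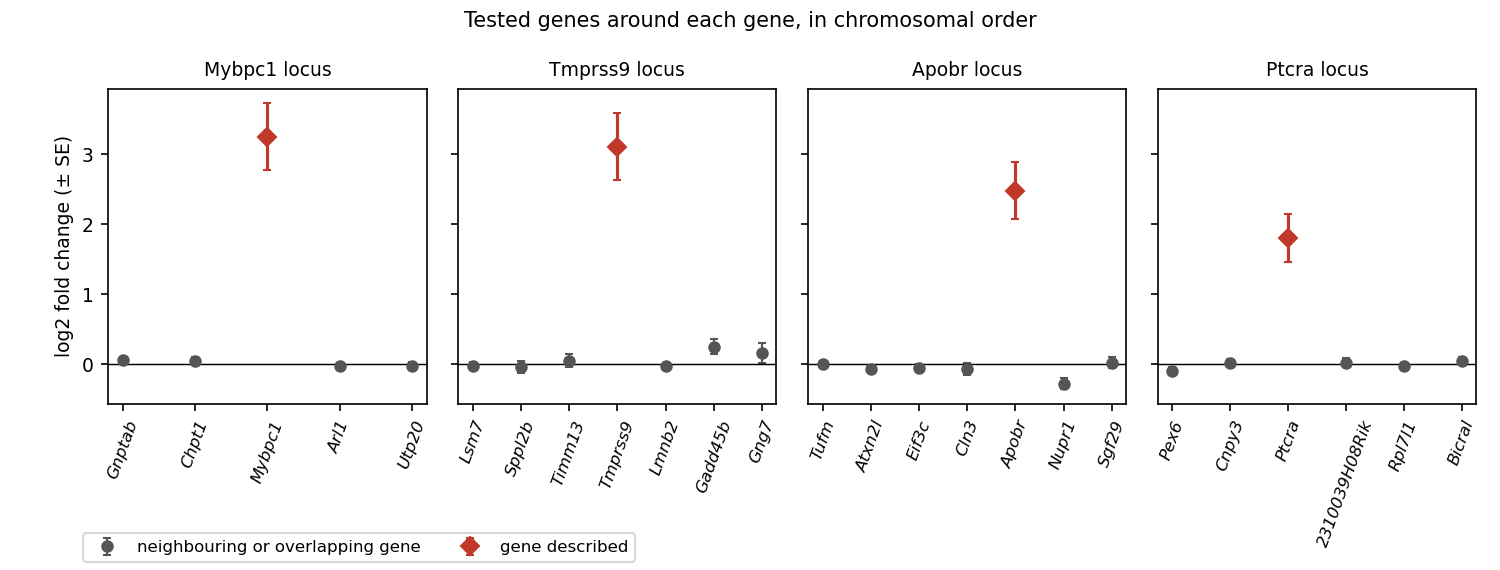
Fitted log2 fold change (± SE) of the tested neighbouring and overlapping genes of Mybpc1, Tmprss9, Apobr and Ptcra, in the order of the chromosome, with overlapping genes drawn just left of the gene described. The 21 neighbours (grey) lie between -0.28 and 0.25, and the 4 genes (red) between 1.80 and 3.25.

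No partner of the 4 proteins and no marker of their usual cells passed the test at the adjusted threshold. They were 7 lists with 146 genes, all present in the table, and 45 of these passed the filter. Of the 45, edgeR called 0, beside 0.515% of all tested genes in either direction. At an unadjusted p under 0.05 there were 7 of the 45, of which 5 were higher and 2 lower, a larger share than the 5.42% over all tested genes. DESeq2 called 0 as well, with 6 at an unadjusted p under 0.05, and limma-voom called 0, with 7. With no filter, 132 could be tested and edgeR called 0.

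Of 38 sarcomere genes, the partners of Mybpc1 in muscle, 6 passed the filter. All 6 had positive log2 changes, 0 were called and 1 had an unadjusted p under 0.05, with a median of 0.195 beside -0.002 over all tested genes. The one with the smallest p was Ttn, which encodes titin, to which Mybpc1 protein binds. Its level was 0.411 ± 0.197 CPM in control libraries and 0.807 ± 0.278 CPM in Yy1 libraries (SD, n = 4), which is a fitted log2 change of 0.91 ± 0.367 (SE; edgeR adjusted p = 0.726).

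Neb, which encodes the thin filament ruler nebulin, had a log2 change of 0.24 (SE 0.149), Myom1, an M-band protein gene, 0.19 (SE 0.22) and Mylpf, a fast myosin light chain gene, 0.16 (SE 0.223). The closest relatives of Mybpc1 did not pass the filter. Mybpc2, the fast isoform gene, had 18 counts over the 4 control libraries and 22 over the Yy1 libraries, and Mybpc3, the cardiac isoform gene, had 0 and 1. The slow myosin heavy chain gene Myh7 had 14 and 32. Myh2, Myh4 and Myh6 had 0 counts in all 8 libraries, and 17 of the 38 genes never exceeded 3 counts in a library. The summed level of the list ran from 9.57 to 12.4 CPM in control libraries and from 12.3 to 12.8 CPM in Yy1 libraries.

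The factors that drive muscle genes gave a median log2 change of 0.016 over 6 tested of 13, with 0 called. Myod1, Myog and Myf6, which set the muscle programme, had 0 counts in all 8 libraries, and Myf5 had 1 in each group. Srf, Mef2d and Mef2a, also expressed outside muscle, had log2 changes of 0.09, 0.01 and 0.02.

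Among type II transmembrane serine proteases and their inhibitors, the family of Tmprss9, 5 of 21 passed the filter. Their log2 changes ran from -0.17 to 1, with 3 positive, 2 negative, 0 called and 2 at an unadjusted p under 0.05. Tmprss7, which encodes matriptase-3, had 0.348 ± 0.0367 CPM in control libraries and 0.703 ± 0.129 CPM in Yy1 libraries (SD, n = 4; edgeR adjusted p = 0.402). St14, which encodes matriptase, had 0.539 ± 0.177 and 0.901 ± 0.228 CPM (SD, n = 4), which is a fitted log2 change of 0.70 ± 0.307 (SE; edgeR adjusted p = 0.858).

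Tmprss11a, a protease gene of squamous epithelia, had a log2 change of 0.65 (SE 0.393), and Spint2, which encodes a protease inhibitor, one of -0.17 (SE 0.31). The median of the 5 was 0.649, beside -0.002 over all tested genes. Of the others in the family, Tmprss2 had 2 and 3 counts over the libraries of the 2 groups, and 8 of the 21 never exceeded 3 counts. The enteropeptidase gene Tmprss15 had 1 and 0.

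Alpha cells carried much of the machinery that handles lipoproteins, as a background to Apobr. Of 22 genes 14 passed the filter, with 7 positive and 7 negative log2 changes, a median of 0.007, 0 called and 2 at an unadjusted p under 0.05. Lpl, which encodes lipoprotein lipase, stood at 974 ± 40.1 and 973 ± 27.8 CPM (SD, n = 4). Apoe, which encodes apolipoprotein E, had the smallest p, with 9.83 ± 1.1 and 7.91 ± 1.05 CPM (SD, n = 4), which is a fitted log2 change of -0.31 ± 0.104 (SE; edgeR adjusted p = 0.438).

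Cd36, a fatty acid and lipoprotein scavenger receptor gene, had 1.03 ± 0.248 and 1.52 ± 0.37 CPM (SD, n = 4), which is a fitted log2 change of 0.57 ± 0.24 (SE; edgeR adjusted p = 0.785). Vldlr had a log2 change of -0.11 (SE 0.0668), and Mttp, which loads lipid onto apolipoprotein B, one of -0.06 (SE 0.043). Apob, which encodes the ligand of the Apobr protein, had 1 count over the 4 control libraries and 8 over the 4 Yy1 libraries.

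Of 15 macrophage markers, the usual cells of Apobr, 3 passed the filter and 0 were called, with 1 at an unadjusted p under 0.05 and a median log2 change of -0.417. Cd14, a receptor for bacterial lipopolysaccharide, made up most of the list's level at 19.6 ± 1.96 and 20.8 ± 0.659 CPM (SD, n = 4). Cd68, a lysosomal protein gene, had 35, 34, 20 and 33 counts in control and 26, 28, 23 and 26 in Yy1 libraries, a fitted log2 change of -0.50 ± 0.24 (SE; edgeR adjusted p = 0.909), and Itgam, an integrin gene, a log2 change of -0.42 (SE 0.353). The summed level of the 15 ran from 19.3 to 23.8 CPM in control libraries and from 21.9 to 24.8 CPM in Yy1 libraries, and Cd52 was at 0 counts throughout.

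Library 47 had the highest counts of several rare macrophage genes, which are named here after their values were seen. Adgre1, the gene of the F4/80 antigen, had 10 counts there and 0 in the other 7 libraries. Lyz2, a lysozyme gene, had 34 counts there and between 1 and 15 elsewhere, and Laptm5 had 18 there and at most 6 elsewhere. Mpeg1 had 10 there and at most 3 elsewhere, Mertk 10 and at most 8, and Csf1r 5 and at most 3. Spi1 had 3 there and at most 1 elsewhere, and Tyrobp 2 there and 0 elsewhere. Not high there were Fcgr1, Aif1 and Cd52, with 0 counts, and Fcer1g, with 6 there and 8 in library 33. The better counted markers were not highest there either. Cd14 had 688 counts there and 703 in library 45, Itgam 16 there and 25 in library 31, and Cd68 23 there and 35 in library 31. Without library 47 the levels in Yy1 libraries were 0.64 ± 0.208 CPM for Mybpc1, 0.827 ± 0.116 for Tmprss9, 0.768 ± 0.161 for Apobr and 0.935 ± 0.19 for Ptcra (SD, n = 3). Apobr, the macrophage gene of the 4, stood 6.06-fold over the control libraries without that library and 5.97-fold with it. The part of macrophage transcripts in its level was not tested.

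The pre-T cell receptor partners of Ptcra were close to absent. Of 22 genes of that complex, of its signalling and of thymocytes, 2 passed the filter and 0 were called, with 0 at an unadjusted p under 0.05 and a median log2 change of -0.093. Lck, the kinase that signals from the receptor, stood at 2.13 ± 0.437 and 2.18 ± 0.253 CPM (SD, n = 4), a fitted log2 change of 0.03 ± 0.182 (SE), and Lat, an adaptor gene, had a log2 change of -0.22 (SE 0.387). Cd5 and the constant region genes Trac, Trbc1 and Trbc2 had 0 counts in all 8 libraries. Cd3e, whose protein assembles with the receptor, had 0 counts over the control libraries and 2 over the others, and Rag1, the recombinase gene, had 3 and 10, of which 9 were in library 47.

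Ptprc, which encodes the pan-leukocyte antigen CD45 and is named here after its values were seen, did not pass the filter. It had 2, 5, 2 and 2 counts in control libraries and 19, 17, 9 and 10 in Yy1 libraries. Without a filter its log2 fold change was 2.01 (edgeR adjusted p = 0.0855). The summed level of the thymocyte list ran from 2.67 to 3.94 CPM in control libraries and from 3.68 to 4.14 CPM in Yy1 libraries, and the part of leukocyte transcripts in the levels of Ptcra and Apobr was not tested beyond these values.

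Transcription factors known from early thymocytes were in part well expressed. Of 15, 9 passed the filter, with 2 positive and 7 negative log2 changes, a median of -0.036, 0 called and 0 at an unadjusted p under 0.05. Tcf12 and Tcf3, which encode the E proteins that act on the Ptcra enhancer in thymocytes, stood at 83.2 ± 3.83 and 72.3 ± 4.65 CPM in control libraries and at 81.2 ± 3.17 and 72.8 ± 2.68 CPM in Yy1 libraries (SD, n = 4). Myb, a haematopoietic factor gene, had the smallest p, with a log2 change of 0.39 (SE 0.217; edgeR adjusted p = 0.943). Notch1, which drives T cell commitment, had 17 counts over the control libraries and 34 over the others and did not pass the filter, nor did Notch3, with 4 and 12.

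**Figure D4:**
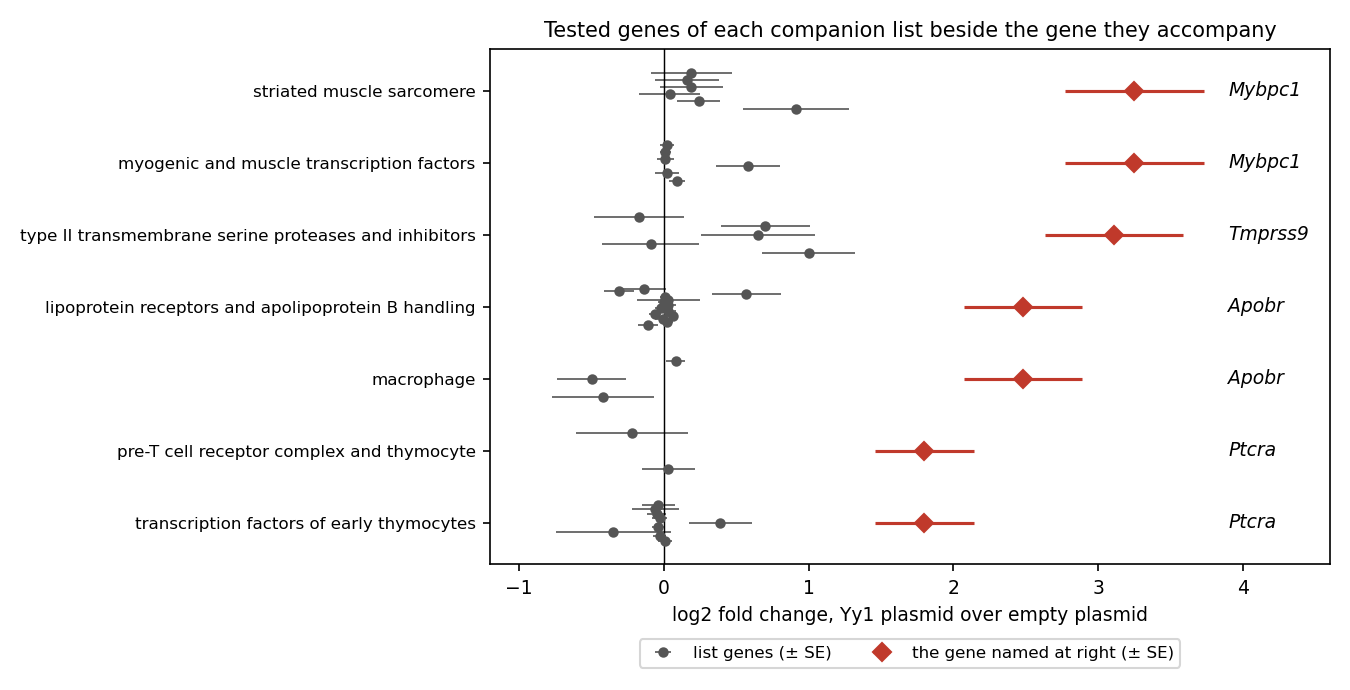
Fitted log2 fold change (± SE) of each tested gene in 7 lists of partners, regulators or cell type markers (grey), beside that of the gene each list accompanies (red). The grey points lie between -0.50 and 1, and the red ones at 3.25 (Mybpc1), 3.11 (Tmprss9), 2.48 (Apobr) and 1.80 (Ptcra).

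The genes whose levels followed the 4 most closely were sought among 12283 tested genes, leaving out the 4 themselves and genes with no symbol or with a provisional one (Gm, AC or Rik names), by Pearson's r of log2(CPM + 1) over the 8 libraries. All 8 points share the split by plasmid, so these values describe the libraries and carry no test. The closest to Mybpc1 were Krt222, a keratin-like gene (r = 0.957), Sars2, the mitochondrial seryl-tRNA synthetase gene (r = 0.953), and Sag, which encodes retinal arrestin (r = 0.953). For Tmprss9 they were Yy1 itself (r = 0.968), Rab31, a trafficking GTPase gene (r = 0.96), and Slfn5, a Schlafen family gene (r = 0.948).

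For Apobr the closest were Tnfsf13os, an antisense transcript (r = 0.985), Uchl1, a neuroendocrine deubiquitinase gene (r = 0.977), and P2rx7, an ATP-gated channel gene (r = 0.971). For Ptcra they were Sag (r = 0.978), Plch1, a phospholipase gene (r = 0.969), and Mcc, a candidate tumour suppressor gene (r = 0.956). Among the 4 genes themselves r ran from 0.875, between Tmprss9 and Apobr, to 0.963, between Mybpc1 and Tmprss9.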

How the data were processed

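Per the labels' protocols, Trizol and column extraction was followed by poly(A) selection and a directional library kit. Named in the submitters' processing notes, without versions, are kallisto, fastp and GRCm39. The authors deposited estimated counts per Ensembl gene, not scaled for depth, and how transcripts were summed to genes is not given in the sources used here. These expected counts were rounded for all tests.

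Symbols came from GENCODE mouse release 21, which matched 48327 of 75078 IDs. Low genes were removed by filterByExpr (at least 10 counts, 15 in total), and after TMM scaling the rest were fitted over all genes with edgeR 4.0.16 in R 4.3.3 (glmQLFit, glmQLFTest, robust), in a two-sided test called at a Benjamini-Hochberg adjusted p under 0.05. CPM use TMM-scaled sizes, SE is the log2 fold change over the square root of F, and intervals are exact Poisson ones. Neighbours and words came from GENCODE, promoter windows from RefSeq. Alternatives used DESeq2 1.42.0 and limma 3.58.1 among others. The edgeR step was tested on simulated data. Replicate pairs differed beyond sampling noise (chi-square per degree of freedom 2.76 to 12.4).

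The 4 genes and the lists were chosen with earlier results of these data known. Named always were these genes, Yy1 and Gcg; added were called list members or up to 4 with the smallest p per list, abundant ones, tested neighbours and the 3 most similar genes each. A few results are not reported here because they concern withheld items.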

Additional observations from a re-analysis of the deposited data

Results flagged for a closer look

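Checked were 46 groups of 4 libraries, for the 4 genes, the summed lists and macrophage genes with at least 10 counts in a library. In 2 of them 1 library lay far from the other 3. Both were library 47 of the Yy1 plasmid. Adgre1 met the limit of 10 counts only through that library, and both groups share it. The number of such groups was therefore not set against a chance rate. Adgre1 stood at 0.301 CPM there and at 0 in the other 3, and Lyz2 at 1.02 CPM against 0.0337 to 0.123 CPM. None of Mybpc1, Tmprss9, Apobr and Ptcra had such a library in either group.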

How the results depend on the processing

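No paired analysis was possible because the groups share no sample number. Among 16 alternatives for Mybpc1 and 17 each for Tmprss9, Apobr and Ptcra, none reversed a log2 fold change. With a prior count of 2, the value for Mybpc1 was 2.45 and that for Apobr 2.04, since a larger prior count pulls ratios of small counts towards 0. Leaving out single libraries gave 3.04 to 3.42 for Mybpc1, 2.68 to 3.79 for Tmprss9, 2.28 to 2.83 for Apobr and 1.59 to 2.15 for Ptcra. Mybpc1 was not tested after thinning to the smallest library, where its lowest Yy1 library kept 8 counts, and none of the 4 passed a filter of 1 CPM in 4 libraries. The number of genes called was 82, and 65 to 87 with single libraries left out. It was 174 with no filter on low counts, 54 with the 1 CPM filter and, chosen after seeing the data, 10 with only protein-coding genes and 20 with only genes with a symbol tested. The 7 lists and the neighbours had 0 calls in every one of the 17 alternatives run for them.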

Other observations

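Among the 9189 protein-coding genes at or under 0.281 CPM with an empty plasmid, the mean of Ptcra there, 6 stood at 0.668 CPM or more, the mean of Mybpc1, with a Yy1 plasmid. Mybpc1, Tmprss9, Apobr and Ptcra are among the 6 by construction, because both limits were taken from their values. The other genes were Ren1, which encodes renin, and Tex101, a germ cell surface protein gene. Both are named after their values were seen. Tex101 had 10, 8, 7 and 3 counts in control libraries and 27, 11, 17 and 35 in Yy1 libraries, and it was the 1 of the 6 that edgeR did not call. The limits came from genes chosen for a rise, so the numbers of genes in this range and in the mirrored one are not comparable. In the opposite direction 1 gene lay in the mirrored range, Zfp935, a zinc finger gene. Its estimated counts were 57.6, 26.5, 0 and 7.89 in control libraries and 0, 3.33, 0 and 0 in Yy1 libraries, so its groups overlapped.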
